A study of Mus musculus with 8 samples.

Results

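Histone and DNA methylation enzymes are 67 genes of the deposited table of 17492, taken by their symbols. They are the Kdm, Kmt2, Kmt5, Setd, Ehmt, Suv39h, Ezh, Nsd, Prmt, Smyd, Tet and Dnmt families with Ash1l, Dot1l and Carm1. No measured value entered this rule, but members and classes were chosen with earlier results of these data known. Of the 67 genes, 46 were classed as writers, which add methyl groups, and 20 as erasers, which remove them or oxidise methylated cytosine. The other 1, Dnmt3l, was classed as a cofactor without catalytic activity of its own. The cells sequenced were macrophages grown in culture from the bone marrow of C57BL/6 mice (BMDM), and RNA came from whole cultures. The 4 serine/glycine-free libraries (treatment given as serine deficiency) came from medium without serine and glycine, and the 4 control libraries (given as untreated) from normal medium. The labels name no stimulus, age, sex or duration, and they do not say whether libraries came from separate cultures or animals, so the p-values cover no more than the spread among these 8 samples, and that spread may be technical.

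Writers transfer the methyl group of S-adenosylmethionine to lysine or arginine side chains or to cytosine. S-adenosylmethionine is made from methionine, whose regeneration from homocysteine draws on the one-carbon units that serine supplies. Most erasers are iron-dependent dioxygenases that use oxygen and 2-oxoglutarate, either with a JmjC domain (most KDM proteins) or as TET enzymes, while KDM1 proteins are flavin-dependent amine oxidases. In macrophages these enzymes are known for setting the methylation of promoters and enhancers of inflammatory genes, with KDM6B and TET2 among the best studied.

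The transcripts of these enzymes were lower without serine and glycine more often than higher, and the falls were small apart from a few erasers. Of the 63 members with enough counts to test, 25 fell, 2 rose and 36 did not pass an adjusted p of 0.05 (edgeR quasi-likelihood test, Benjamini-Hochberg adjustment over the 11700 genes tested), where 17.3% of all tested genes fell, 15.9% rose and 33.2% did either. Among erasers 10 of 18 fell and 0 rose, with a median log2 change of -0.15. Among writers 15 of 44 fell and 2 rose, with a median log2 change of -0.059. Over all tested genes the median was 0.0074. The difference between writers and erasers was not tested. A fall of at least 1.2-fold was seen for 5 members, Kdm6b, Tet2, Tet3, Setd1b and Suv39h2, and for 4.99% of all tested genes.

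The same direction was seen in every library without serine and glycine. In CPM (counts scaled to a common library size after TMM normalization), the median over tested erasers of the log2 ratio to the control mean was -0.15, -0.13, -0.13 and -0.17 in serine/glycine-free replicates 1 to 4, against -0.018 to 0.034 in the controls. For tested writers it was -0.065, -0.049, -0.062 and -0.095, against -0.027 to 0.026 in the controls. Over all tested genes the same median lay between 0.0013 and 0.0062 in the serine/glycine-free libraries. All 4 serine/glycine-free libraries lay below all 4 controls for 22 of the 63 members (16.2% of all tested genes), and above them for 3, Setd3, Prmt7 and Setd6 (14.5% of all tested genes). The deposited TPM values, which are scaled for transcript length, summed over the erasers to 350.0 to 368 in the controls and 299 to 329 without serine and glycine, and over the writers to 1275 to 1305 and 1184 to 1249. Neither pair of ranges overlapped. The scaling of TPM for length leaves the relation of change to length, described below, in place (r = -0.52 across members with the deposited TPM in limma).

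**Figure D1:**
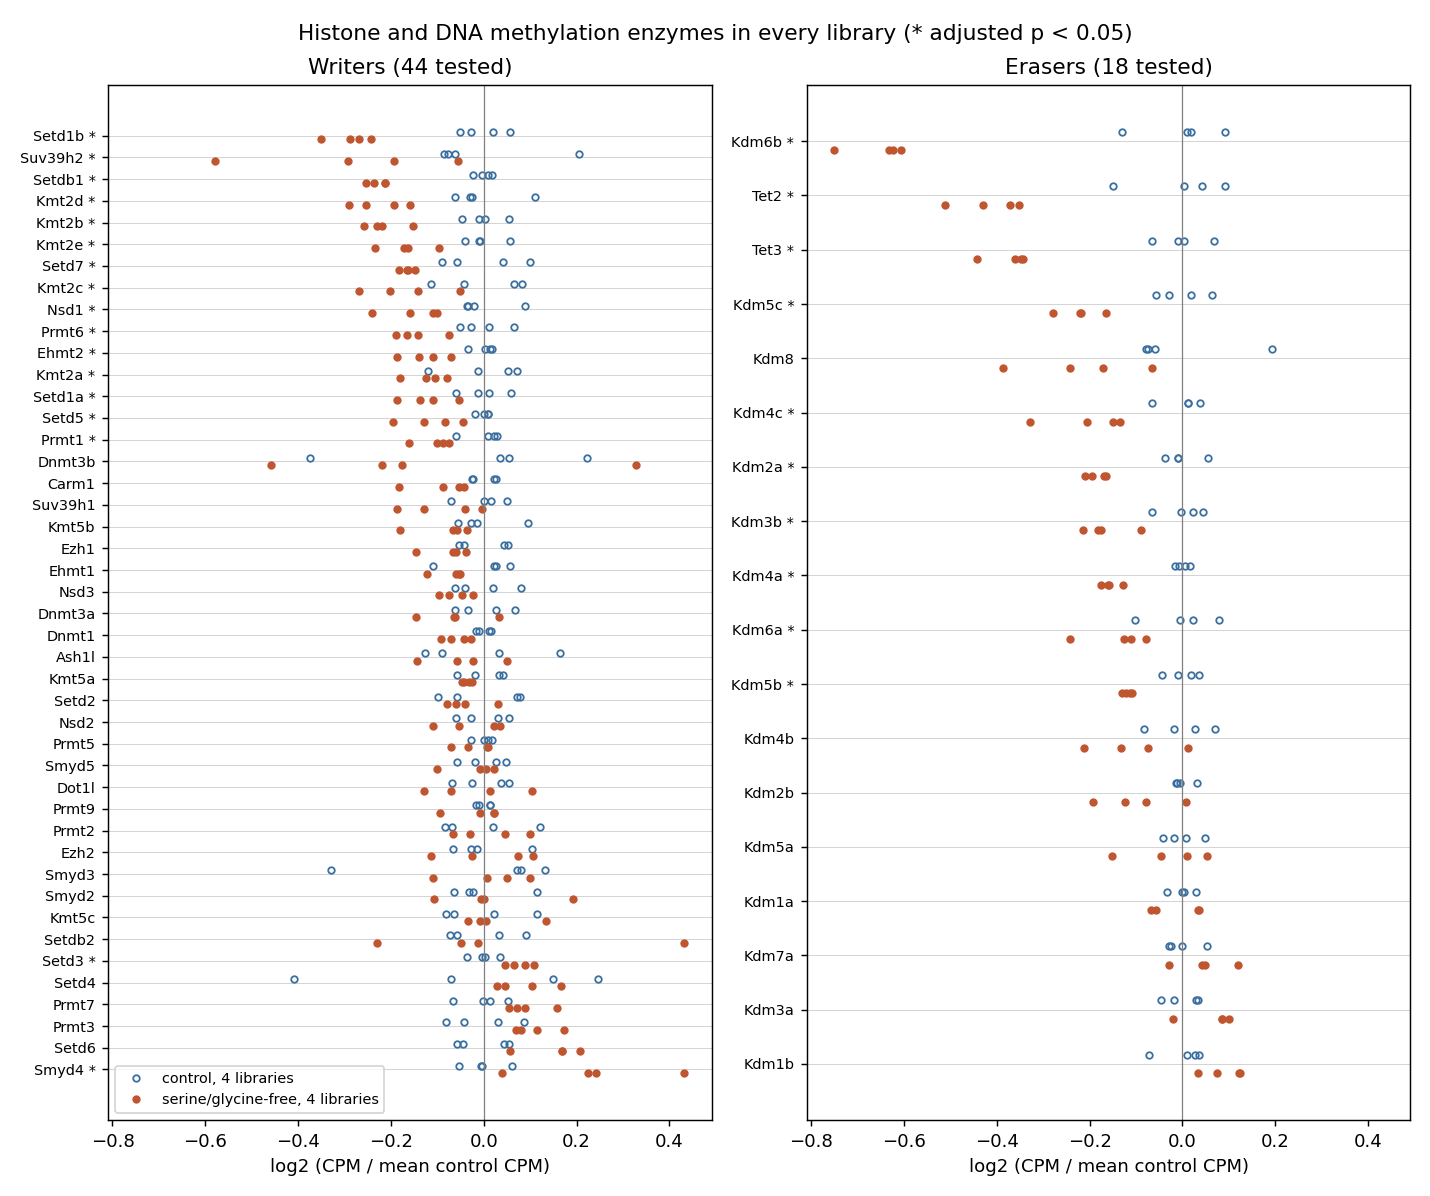
Each row is 1 tested writer (left) or eraser (right), ordered by fitted change, with an asterisk where the adjusted p was under 0.05. Points are libraries, placed by the log2 ratio of their CPM to the mean of the 4 controls (open, control; filled, serine/glycine-free). The filled points of Kdm6b, Tet2 and Tet3 stand clear of the controls on the left, and those of Smyd4 and Setd3 lie to the right.

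The 4 members that were not tested had 0 to 4 counts in any library: Tet1 (0 to 3), Kdm4d (0 to 3), Prmt8 (0 to 2) and Smyd1 (0 to 4). Per length, the most abundant member was Prmt1, the main enzyme of asymmetric arginine dimethylation, with 152 ± 4.58 TPM in the controls (SD, n = 4), followed by Setd3 with 108 ± 2.58, Ehmt2 with 102 ± 1.89 and Kmt5a with 90.6 ± 2.22. The first of these stood apart from the next beyond their spread, as did Kmt5a from Dnmt1 below it (49.7 ± 0.585 TPM). The highest eraser was Kdm2a (44.3 ± 1.30 TPM), and its neighbour in the order Kdm5c (42.6 ± 1.71 TPM) did not differ from it beyond that spread. Kdm6b, at 6.97 ± 0.366 TPM, ranked 55 of 67, and Tet2, at 12.995 ± 1.02, ranked 45. Thus 2 of the 3 members with the largest falls ranked low by level.

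Library totals lay between 17565291 and 18201599 estimated counts, so 3 counts, the most a count of 0 allows, are a small part of 1 CPM (counting error only). Counts differed beyond sampling noise in each of the 12 within-group pairs of libraries (chi-square over its degrees of freedom, 1.41 to 3.46). All 8 macrophage markers were detected and all 8 changed, 4 up and 4 down: Itgam went from 1695 to 1110 CPM (log2 change -0.61), Adgre1 from 5763 to 4849 (-0.25), Csf1r from 946 to 1259 (0.41) and Lyz2 from 9107 to 9994 (0.13). Their sums were close, 18919 to 19371 CPM in the controls and 18899 to 19174 without serine and glycine. Counts of Lyz2 were not whole in any library. Summed markers of neutrophils were 0.772 to 1.12 and 1.89 to 2.29 CPM, of dendritic cells 1.21 to 1.96 and 1.34 to 1.89, of T and NK cells 2.32 to 3.03 and 2.12 to 3.29, of stromal cells 0.844 to 1.46 and 1.37 to 1.89, and of erythroid cells 0.441 to 1.07 and 0.229 to 0.445. Mast cell and basophil markers reached at most 0.111 CPM. The B cell list summed to 43.5 to 51.3 and 32.1 to 38.9 CPM, nearly all of it Cd79b (46.3 and 34.996 CPM), with Ms4a1 and Pax5 each under 1 CPM. Osteoclast markers, nearly all Acp5, summed to 172 to 181 and 166 to 172 CPM. Of 16 S phase and proliferation genes, 5 rose and 0 fell (15.9% and 17.3% of all tested genes), and their sum went from 1297 to 1316 CPM to 1365 to 1392 CPM. The part of these shifts in the results below was not tested.

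Promoter sequence is shown for both detected TET genes and for Setdb1, the H3K9 writer with the smallest adjusted p, since these fell together with groups that did not overlap. RefSeq windows on GRCm38.p6, the build that the submitters' processing notes name, run from 250 bases before to 50 bases after an annotated start. For Tet2 and Tet3 the start used lies inside the gene's outer bounds. Such windows were given for 53 of the 67 members, and not for Kdm6b and Setd1b. The Tet2 window lies at chr3:133544341-133544640, that of Tet3 at chr6:83441629-83441928 and that of Setdb1 at chr3:95357153-95357452, all on the minus strand. Each is written 5′ to 3′ in the direction of the gene, with capitals on matches to a GC box (GGGCGG) or a CCAAT box (CCAAT), each searched on both strands.
Tet2: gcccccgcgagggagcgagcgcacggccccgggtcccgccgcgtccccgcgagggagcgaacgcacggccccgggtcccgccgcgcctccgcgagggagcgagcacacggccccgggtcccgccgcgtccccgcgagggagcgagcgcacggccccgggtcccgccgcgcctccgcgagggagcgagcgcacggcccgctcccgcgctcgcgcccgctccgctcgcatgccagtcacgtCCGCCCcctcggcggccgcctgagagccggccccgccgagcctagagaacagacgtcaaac
Tet3: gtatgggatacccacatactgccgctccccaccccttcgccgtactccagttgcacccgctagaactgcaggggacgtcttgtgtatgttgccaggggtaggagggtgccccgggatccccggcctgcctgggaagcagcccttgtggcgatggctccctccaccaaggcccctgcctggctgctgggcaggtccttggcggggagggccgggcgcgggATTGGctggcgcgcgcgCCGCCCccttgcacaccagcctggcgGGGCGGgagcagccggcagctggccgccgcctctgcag
Setdb1: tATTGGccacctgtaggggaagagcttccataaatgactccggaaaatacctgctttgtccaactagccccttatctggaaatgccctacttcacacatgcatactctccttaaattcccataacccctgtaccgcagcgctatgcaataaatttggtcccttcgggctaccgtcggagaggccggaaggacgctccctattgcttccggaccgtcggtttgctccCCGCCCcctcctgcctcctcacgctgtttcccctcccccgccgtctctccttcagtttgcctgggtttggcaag
The Tet2 window held 57 CG dinucleotides and 1 GC box, that of Tet3 22 and 2 with 1 CCAAT box, and that of Setdb1 15 and 1 with 1 CCAAT box. A GC box was present in 13 of 20 windows of members that fell (65.0%), in 34 of 47 windows of other tested members (72.3%) and in 35.7% of all 32851 windows. For the CCAAT box these shares were 25.0%, 46.8% and 37.4%. Some genes had several windows, so these sets covered 18, 31 and 27025 genes. The last set was not limited to tested genes. The letters of an interferon-stimulated response element (ISRE, by its usual consensus) were in 0 windows of tested members and 3.44% of all, and those of an amino acid response element (CARE, TGATGNAA) in 1 and 3.97%. No matches overlapped in the windows shown. A match is a description of letters and not a measured binding site.

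Erasers held the largest changes. Kdm6b encodes the JmjC demethylase of H3K27 that inflammatory signals are known to induce in macrophages. Its level was 26.9, 25.6, 23.1 and 25.4 CPM in control replicates 1 to 4 and 15.02, 16.6, 16.3 and 16.4 CPM in serine/glycine-free replicates 1 to 4. Every serine/glycine-free library was below every control, a 1.57-fold fall (log2 change -0.65, SE 0.060, adjusted p = 4.3e-12). Its relative Kdm6a, the X-linked and broadly expressed H3K27 demethylase, stood at 66.0, 61.7, 69.9 and 67.3 CPM in the controls and at 62.7, 60.7, 61.3 and 56.0 CPM without serine and glycine. These groups overlapped and the fall was smaller (log2 change -0.14, SE 0.041, adjusted p = 0.0081). The call of Kdm6a was lost without control replicate 3 (adjusted p = 0.054).

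The TET enzymes oxidise 5-methylcytosine, the first step of active DNA demethylation. Tet2 was at 58.3, 64.8, 68.9 and 66.6 CPM in the controls and at 50.7, 50.004, 48.0 and 45.3 CPM without serine and glycine, with no overlap (log2 change -0.41, SE 0.046, adjusted p = 3.4e-09). Tet3 was at 121, 116, 127 and 120.4 CPM in the controls and at 95.5, 94.3, 89.1 and 95.1 CPM in the other group, again with no overlap (log2 change -0.37, SE 0.034, adjusted p = 2.0e-12). Both detected TET transcripts were therefore about 1.3-fold lower (1.33-fold and 1.30-fold). Tet3 was also the more abundant per length, with 20.02 ± 0.743 TPM against 12.995 ± 1.02 TPM for Tet2 in the controls. On GRCm38.p6, Kdm6b (Entrez 216850) lies on chromosome 11 at 69398508 to 69420367, Tet2 (214133) on chromosome 3 at 133463677 to 133545136 and Tet3 (194388) on chromosome 6 at 83362373 to 83457208, all annotated as protein-coding.

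Kdm5c, an X-linked demethylase of H3K4, was at 150.2, 147, 160.2 and 155 CPM in the controls and at 132, 137, 132 and 126 CPM without serine and glycine (log2 change -0.22, SE 0.031, adjusted p = 2.4e-07). The groups did not overlap. Its relative Kdm5b fell by 0.12 on the log2 scale (adjusted p = 0.022), a call that was lost without control replicate 2 (0.053) or 3 (0.068) and with DESeq2 (0.061), and Kdm5a stood at -0.031 (adjusted p = 0.589). Kdm2a, a demethylase of H3K36 that binds CpG islands, went from 151, 148, 158 and 151 CPM to 135, 136, 131 and 133 CPM (log2 change -0.18, SE 0.030, adjusted p = 2.5e-06), with no overlap. Kdm4c, a demethylase of H3K9 and H3K36, went from 36.5, 38.4, 38.5 and 39.2 CPM to 34.4, 33.1, 34.7 and 30.4 CPM (log2 change -0.20, SE 0.048, adjusted p = 0.00089), also without overlap. Kdm4a (-0.16, adjusted p = 0.00036) and the H3K9 demethylase Kdm3b (-0.16, adjusted p = 0.00014) fell as well.

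The other 8 tested erasers did not pass. Kdm1a, which encodes the amine oxidase LSD1, was at 57.6, 56.5, 56.4 and 55.1 CPM in the controls and at 54.2, 57.8, 57.7 and 53.8 CPM without serine and glycine (log2 change -0.013, SE 0.040, adjusted p = 0.846). Kdm1b stood at 0.088 (adjusted p = 0.261), so neither of the 2 amine oxidases passed. Kdm2b (-0.095), Kdm4b (-0.099), Kdm8 (-0.21), Kdm3a (0.064) and Kdm7a (0.047) had adjusted p between 0.111 and 0.475. Thus the 10 erasers that fell were all dioxygenases, out of 16 dioxygenase genes tested. With 2 amine oxidase genes no difference between these kinds of enzyme was tested.

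**Figure D2:**
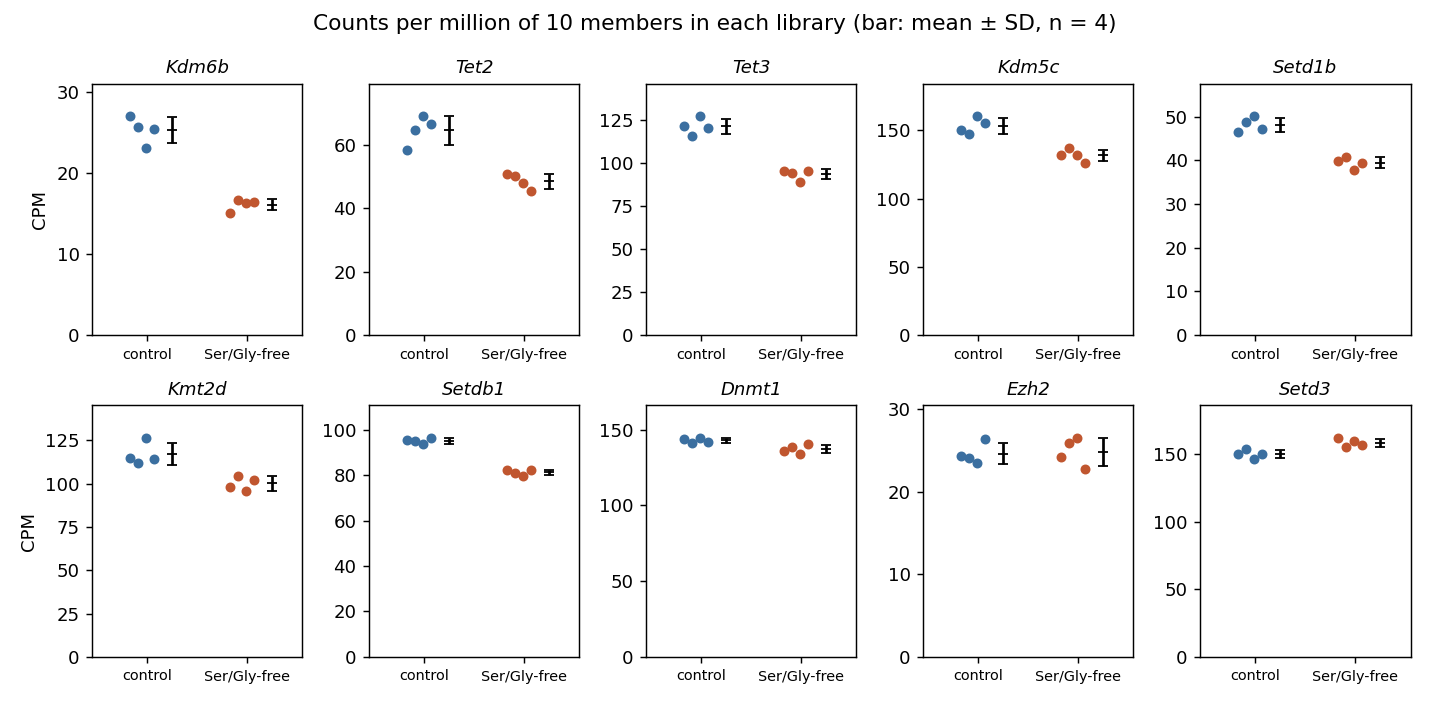
CPM of 10 members in each of the 4 control and 4 serine/glycine-free libraries, with the mean and SD of each group beside the points and axes from 0. The 2 groups are apart for Kdm6b, Tet2, Tet3, Kdm5c, Setd1b, Kmt2d and Setdb1, mixed for Ezh2, and close together for Dnmt1 (control mean 143 CPM, serine/glycine-free mean 137 CPM) and Setd3.

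Among writers, the H3K4 group had the most falls. It holds the 5 Kmt2 genes (MLL family) with Setd1a and Setd1b, the catalytic subunits of COMPASS-type complexes that methylate H3K4 at promoters and enhancers. KMT2E, a member by sequence, is thought to lack this activity. All 7 fell, with log2 changes between -0.29 and -0.12, where 17.3% of all tested genes fell. All serine/glycine-free libraries lay below all controls for 4 of them (16.2% of all tested genes). All 7 lie in the longest of 5 bins of transcript length (described below), where 29.4% of other genes fell. The group follows gene families, and Setd7, known for mono-methylation of H3K4, is counted below among the other SET and SMYD genes. With the trend of transcript length removed, 5 of the 7 passed, where 21.2% of all tested genes fell. Kmt2a (adjusted p = 0.587) and Kmt2c (0.137) did not pass in that fit. Setd1b was at 46.5, 48.9, 50.1 and 47.3 CPM in the controls and at 40.0, 40.7, 37.8 and 39.4 CPM without serine and glycine (log2 change -0.29, SE 0.043, adjusted p = 6.7e-07). Kmt2d went from 115, 112, 126 and 114 CPM to 98.1, 105, 95.6 and 102 CPM (log2 change -0.22, SE 0.036, adjusted p = 4.5e-06). Kmt2b went from 70.8, 68.4, 73.4 and 70.2 CPM to 59.1, 63.6, 60.3 and 60.7 CPM (log2 change -0.21, SE 0.038, adjusted p = 1.2e-05). In these 3 genes every serine/glycine-free library was below every control. Kmt2a, the founding MLL gene, overlapped between groups, with 81.5, 75.6, 85.3 and 86.4 CPM in the controls and 76.4, 77.8, 75.4 and 72.5 CPM in the other libraries (log2 change -0.12, SE 0.038, adjusted p = 0.012). Its call was lost without control replicate 3 (adjusted p = 0.056) or 4 (adjusted p = 0.067). Kmt2e (-0.17), Kmt2c (-0.16) and Setd1a (-0.12) fell by adjusted p of 0.00018, 0.0064 and 0.011. Setd1a did not pass without control replicate 3 (adjusted p = 0.056) or when serine/glycine-free replicate 1 was dropped (0.060). Counts of Kmt2e were not whole in any library, so the authors' counting divided reads between loci, which makes its level uncertain.

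Of 6 writers of H3K9 methylation, the mark of heterochromatin, 3 fell, where 17.3% of all tested genes did. Setdb1, which silences retroelements, was tight within groups, with 95.7, 94.9, 93.6 and 96.3 CPM in the controls and 82.1, 80.8, 79.9 and 82.1 CPM without serine and glycine (log2 change -0.23, SE 0.033, adjusted p = 2.8e-07). Ehmt2, which encodes G9a, went from 211, 209, 211 and 204 CPM to 183, 194, 189.6 and 199 CPM (log2 change -0.13, SE 0.028, adjusted p = 0.00046), with no overlap. Suv39h2 was low, at 7.49, 7.45, 7.57 and 9.11 CPM in the controls and 6.91, 7.60, 5.29 and 6.46 CPM in the other group (log2 change -0.27, SE 0.10, adjusted p = 0.039). Its groups overlapped, its counts were not whole in any library, and its call was lost without any 1 of 3 libraries (adjusted p = 0.181 without control replicate 4, 0.213 without serine/glycine-free replicate 3 and 0.066 without serine/glycine-free replicate 4) and with DESeq2 (0.112). Ehmt1 (-0.071), Suv39h1 (-0.089) and Setdb2 (0.056) did not pass, though Suv39h1 did with the trend of genomic span removed (adjusted p = 0.033).

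Writers of the remaining marks mostly did not pass. Ezh2, the proliferation-linked H3K27 methyltransferase of PRC2, was at 24.4, 24.2, 23.5 and 26.4 CPM in the controls and 24.2, 25.9, 26.5 and 22.8 CPM without serine and glycine (log2 change 0.013, SE 0.057, adjusted p = 0.889). Ezh1, the form of resting cells, was the more abundant per length (34.0 ± 1.43 TPM against 18.1 ± 0.858 TPM for Ezh2 in the controls). Ezh1 went from 73.6, 73.1, 78.1 and 78.6 CPM to 73.9, 72.8, 68.5 and 72.4 CPM, with overlap (log2 change -0.077, SE 0.037, adjusted p = 0.109), and passed, among the alternatives run, only with the trend of genomic span removed (0.038). The H3K27 eraser Kdm6b thus fell while neither H3K27 writer passed, where 33.2% of all tested genes passed in either direction. The difference between this eraser and the writers was not tested. Of 5 H3K36 writers only Nsd1 fell (-0.15, adjusted p = 0.00062), where 17.3% of all tested genes did. Setd2, which trimethylates H3K36 along transcribed genes, was at 95.3, 92.6, 104 and 105 CPM in the controls and 101, 93.8, 95.2 and 96.4 CPM in the other group (log2 change -0.037, SE 0.037, adjusted p = 0.491). Dot1l, the H3K79 methyltransferase, was at 61.6, 66.2, 67.1 and 63.4 CPM and at 61.5, 69.4, 59.1 and 65.2 CPM (log2 change -0.018, SE 0.043, adjusted p = 0.791). None of the 3 Kmt5 genes of H4K20 methylation passed, with log2 changes between -0.084 and 0.025 and unadjusted p of 0.070 or more.

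DNA methyltransferases also did not pass. Dnmt1, the maintenance enzyme, was at 144, 141, 144 and 142 CPM in the controls and at 136, 139, 134 and 140.2 CPM without serine and glycine. These groups did not overlap, and the means (143 ± 1.57 and 137 ± 2.78 CPM, SD, n = 4) lay further apart than either SD, but the adjusted p missed the threshold (log2 change -0.058, SE 0.029, adjusted p = 0.124). Dnmt3a, which methylates new sites, was at 74.0, 75.5, 78.7 and 81.0 CPM and at 74.0, 79.03, 73.9 and 69.9 CPM (log2 change -0.059, SE 0.038, adjusted p = 0.252). Dnmt3b was near the limit of the test, at 1.74 to 2.64 CPM in the controls and 1.65 to 2.84 CPM in the other group (log2 change -0.10, SE 0.18, adjusted p = 0.704). Dnmt3l stood at 0.31 (adjusted p = 0.456) from under 1.2 CPM in every library. The TET transcripts fell, then, while no DNA methyltransferase passed, again with no test of the difference. Over all tested genes 33.2% passed in either direction, and all 3 methyltransferases had log2 changes below 0. The unadjusted p of the 3 methyltransferases lay between 0.053 and 0.566.

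Among arginine writers 2 of 8 fell, near the 17.3% of all tested genes, and neither call held in every fit that left out a library. Prmt1 was at 99.4, 99.0, 98.1 and 93.5 CPM in the controls and at 87.2, 90.8, 91.8 and 92.6 CPM without serine and glycine (log2 change -0.11, SE 0.034, adjusted p = 0.012), with no overlap. Leaving out serine/glycine-free replicate 1 ended this call (adjusted p = 0.066). Prmt6 (-0.14, adjusted p = 0.046) passed in only 2 of the 8 fits that left out a library, those lacking control replicate 1 or serine/glycine-free replicate 3. Its highest adjusted p was 0.137, lacking control replicate 4, and it was 0.068 with a replicate block and 0.130 with DESeq2. Carm1, a coactivator that methylates H3R17, was at 64.0, 64.1, 62.0 and 61.9 CPM and at 59.3, 60.7, 55.5 and 61.2 CPM (log2 change -0.091, SE 0.039, adjusted p = 0.069). It passed with the trend of length (adjusted p = 0.022) or genomic span (0.034) removed, with the deposited TPM in limma (0.039) and without serine/glycine-free replicate 4 (0.039), and its counts were not whole in any library. Prmt3 (0.11) and Prmt7 (0.094) stood above 0 without passing.

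The SET and SMYD genes of other or uncertain substrates held both rises among the members. Of 9 tested, 2 rose and 2 fell (22.2% each), near the 15.9% and 17.3% of all tested genes. Setd3, which methylates a histidine of actin rather than a histone, was at 149.7, 154, 146 and 150.3 CPM in the controls and at 162, 155, 159.5 and 157 CPM without serine and glycine (log2 change 0.077, SE 0.029, adjusted p = 0.035). Smyd4 was at 7.49, 7.83, 7.24 and 7.48 CPM and at 8.88, 8.77, 10.1 and 7.72 CPM, with overlap (log2 change 0.24, SE 0.090, adjusted p = 0.035). Both calls were lost without any 1 of 5 libraries (control replicates 1, 3 and 4 and serine/glycine-free replicates 1 and 3), and the highest adjusted p was 0.121 for Setd3, lacking control replicate 3, and 0.185 for Smyd4, lacking serine/glycine-free replicate 3. Neither passed with DESeq2 (0.079 and 0.121), and Setd3 also missed it with a replicate block (0.073). Setd5 (-0.11) and Setd7 (-0.17), whose products are known for chromatin regulation and for mono-methylation of H3K4 and other proteins, fell, with adjusted p of 0.0043 and 0.0011.

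The members are long transcripts, and in these libraries long transcripts tended to be lower without serine and glycine. The effective transcript length, derived from the deposited counts and FPKM, had a median of 4480 bases over tested members, 5963 for erasers and 3990 for writers, against 2718 over all tested genes. Across all tested genes the log2 change fell with log2 length (Pearson r = -0.16, Spearman rho = -0.25, n = 11699 genes). Across members r was -0.51 and rho -0.54 (n = 63 genes), with r = -0.57 for writers (n = 44) and r = -0.26 for erasers (n = 18). These correlations are across genes of the same 8 libraries, so they are descriptions with no test. The trend was not of 1 size in all libraries. The slope of log2 CPM against a doubling of length, relative to each gene's mean, lay between 0.0025 and 0.039 in the controls and at -0.0071, 0.0016, -0.021 and -0.053 in serine/glycine-free replicates 1 to 4, so replicate 4 departed most. Genomic span showed no such relation among members (r = -0.051, rho = -0.078, n = 63), and -0.092 over all tested genes.

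The members were also set beside other genes of like length, with no test. When all tested genes were split by length into 5 bins of equal size, 31 of the 63 members lay in the longest bin (over 4497 bases), where 18 of 31 fell against 29.4% of the 2309 other genes there. The median log2 change in that bin was -0.12 for members and -0.052 for other genes. In the next bin 5 of 10 members fell, against 20.9% of other genes. In the 3 shorter bins 2 of 22 members fell, while 7.66%, 12.1% and 16.1% of other genes did. In the longest bin 8 of 12 erasers and 10 of 19 writers fell.

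**Figure D3:**
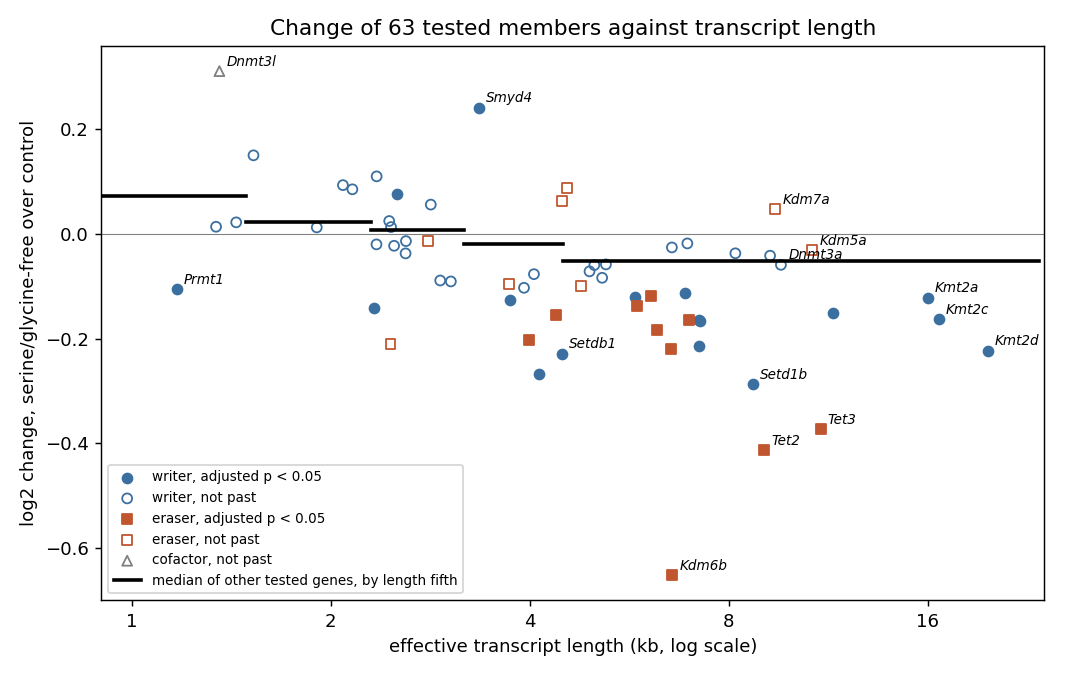
The log2 change of each tested member (circles, writers; squares, erasers; triangle, Dnmt3l; filled where the adjusted p was under 0.05) against effective transcript length in kb on a log axis. Black lines give the median of the other tested genes in 5 bins of length, from 0.073 in the shortest to -0.052 in the longest, and Kdm6b, Tet2, Tet3 and Setd1b lie well under the line of their bin.

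When each library's trend with transcript length was removed in the fit, 22 of the 25 falls remained and 1 further member, Carm1, fell. With this change 21.2% of all tested genes fell, up from 17.3%, and the median over all tested genes moved to -0.018. The median over erasers was then -0.12, with 9 of 18 lower, and over writers -0.048, with 14 of 44 lower. Across members the log2 change still fell with log2 length in this fit (r = -0.26, against -0.51 before). Kdm6b (-0.62, adjusted p = 9.9e-14), Tet2 (-0.36, adjusted p = 5.0e-12) and Tet3 (-0.31, adjusted p = 2.4e-13) kept most of their change. Setd1b (-0.24) and Setdb1 (-0.22) also passed. The very long Kmt2 transcripts moved toward 0: Kmt2a went from -0.12 to -0.026 (adjusted p = 0.587), Kmt2c from -0.16 to -0.065 (adjusted p = 0.137) and Kmt2d from -0.22 to -0.11 (adjusted p = 0.0076). The H3K4 writers that fell thus went from 7 to 5. Kdm5b (adjusted p = 0.071) and the rise of Setd3 (adjusted p = 0.119) were also lost. Prmt1, the shortest transcript among the members named here, moved the other way, from -0.11 to -0.18 (adjusted p = 2.6e-06). With the trend of genomic span removed instead, all 25 falls remained and 3 were added, Ezh1, Carm1 and Suv39h1, while 21.5% of all tested genes fell.

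**Figure D4:**
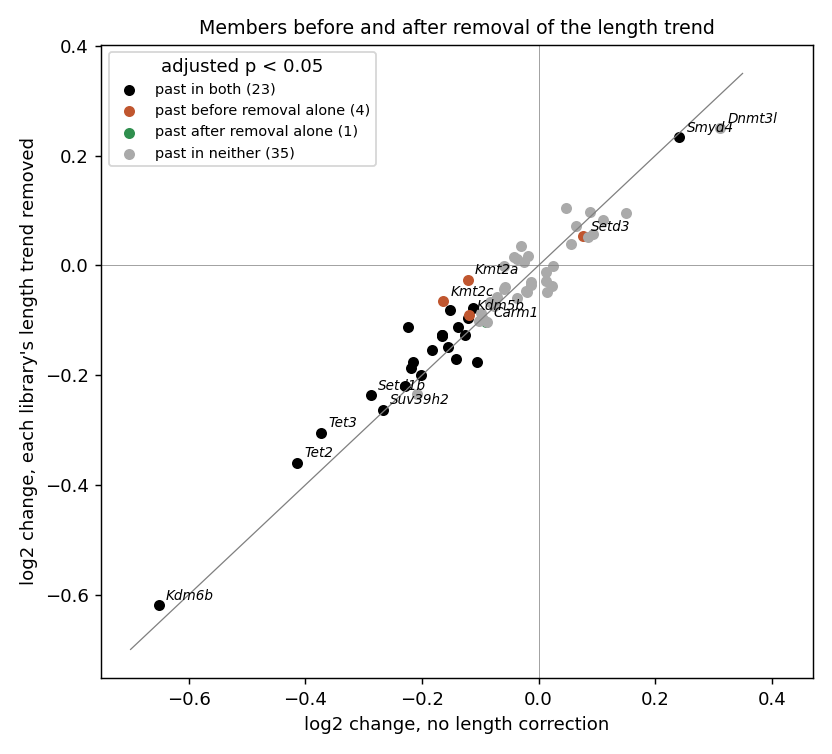
The log2 change of the 63 tested members without (horizontal) and with (vertical) removal of each library's trend with transcript length, coloured by the call in each fit. The 23 members past the threshold in both fits include Kdm6b, Tet2 and Tet3 near the line of equal change, while Kmt2a and Kmt2c lie above it and near 0.

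The subunits that work with these enzymes were counted from lists of their own. Each count below is to be set beside the 17.3% of all tested genes that fell and the 15.9% that rose. Of 10 PRC2 partner genes 1 fell and 1 rose: Aebp2 (-0.18, adjusted p = 7.5e-05) and Epop (0.24, adjusted p = 0.029). The rise of Epop was lost without control replicate 3, serine/glycine-free replicate 3 or serine/glycine-free replicate 4, with DESeq2 and with the length trend removed. The core subunits Eed (0.010) and Suz12 (0.019), named after their values were seen, had adjusted p of 0.892 and 0.753. Of 14 partners in COMPASS and MLL complexes 2 fell and 2 rose (14.3% each), near the shares of all tested genes. Of the H3K4 writers 7 of 7 had fallen (the difference was not tested). The median effective transcript length was 2745 bases for these partners and 8690 for the H3K4 writers. Hcfc1 (-0.22) and Wdr82 (-0.18) were lower and Dpy30 (0.21) higher. The 2 rises became 1 without control replicate 1, control replicate 2 or serine/glycine-free replicate 3, with DESeq2 and with the length trend removed. Of 9 LSD1 partners 1 rose, Gse1 (0.10, adjusted p = 0.045), and 0 fell, where 17.3% of all tested genes did. That rise was lost with DESeq2 and in 6 of the 8 fits that left out a library. The fits that kept it lacked control replicate 2 or serine/glycine-free replicate 1. With the length trend removed 1 partner fell, where 21.2% of all tested genes did. Of 20 genes listed as readers of methylated histones and DNA 4 fell and 2 rose (20% and 10%), near the shares of all tested genes. Their binding to methyl marks was not measured. The 3 with the smallest adjusted p were lower: the methyl-CpG binding Zbtb33 (-0.26), the heterochromatin protein Cbx5 (-0.22) and Mbd6 (-0.23). Counts of Zbtb33 were not whole in 87.5% of libraries. The 2 rises became 1 without any of 6 libraries (control replicates 1, 2 and 4 and serine/glycine-free replicates 1, 3 and 4) and 0 with DESeq2. Of 16 tested JmjC, SET or PRDM genes outside the 67 members, 4 fell and 1 rose: the H3K9 demethylase Phf8 fell (-0.33, adjusted p = 3.1e-07), as did Prdm10 (-0.27), while Prdm1, which encodes BLIMP1, rose (0.33, adjusted p = 0.0058). The count of rises was 2 with the length trend removed, 2 without control replicate 4 or serine/glycine-free replicate 4, and 0 with the deposited TPM in limma.

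Genes that supply the methyl group and the 2-oxoglutarate of these enzymes were counted in the same fit. Of 12 tested genes of methyl donor supply 5 fell and 2 rose, where 17.3% and 15.9% of all tested genes did, and the 2 rises became 1 without control replicate 1 and with DESeq2. Mtr, methionine synthase, had the smallest adjusted p (from 185 ± 6.30 to 127 ± 5.17 CPM; log2 change -0.54, adjusted p = 2.0e-18), and Amd1, which diverts S-adenosylmethionine to polyamines, fell too (-0.18). Counts of Amd1 were not whole in any library, which makes its level uncertain. Of 15 genes around 2-oxoglutarate 5 fell and 1 rose, against the same shares. Idh1, which forms 2-oxoglutarate in the cytosol, rose from 117 ± 2.74 to 152 ± 1.38 CPM (log2 change 0.37, adjusted p = 4.3e-14), while Glud1 (-0.14) and Got1 (-0.20) fell. These are transcript levels, and neither metabolite, enzyme activity nor methylation was measured. In bulk RNA, fewer cells of a type and less RNA per cell cannot be told apart.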

How the data were processed

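RNA was extracted with Trizol and libraries were prepared with oligo-dT beads, per the labels' protocols. Per the submitters' processing notes, the tools were BWA, Bowtie2 and RSEM and the build GRCm38.p6, with no versions recorded. The authors deposited estimated counts, FPKM and TPM for 17492 genes. Estimated counts (8.06% to 8.47% not whole per library, tolerance 1e-06) were rounded and tested. FPKM, by the authors, gave effective transcript lengths through their ratio to the counts. The deposited TPM served for levels between genes and for 1 alternative. Columns of group means (6) were left out.

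The comparison used edgeR 4.0.16 in R 4.3.3: filter (minimum count 10, minimum total 15; 11700 genes kept), TMM scaling, quasi-likelihood F test with robust dispersion, 4 libraries against 4, 6 residual degrees of freedom, threshold 0.05. Fold changes are serine/glycine-free over control. The SE comes from the F statistic. The length trend was a spline (4 degrees of freedom) of each library's log2 CPM deviations on log2 length, entered as offsets. Members, classes, lists and motifs were chosen with earlier results of these data known. Values per library are given for the 12 largest called changes (mean level of 5 CPM or more), for 20 listed members whatever their result and for any rise that passed at that level, and for related lists up to 3 genes with the smallest adjusted p (some genes are not reported here). Alternatives were RLE and library-size scaling, other filters, a replicate block, each library left out in turn, DESeq2 1.42.0, limma 3.58.1 (voom, and TPM on the log2(value + 1) scale), a threshold of 0.01 and removal of length or span trends. The steps were tested on simulated data. Gene positions and spans come from RefSeq on GRCm38.p6, matched by Entrez ID for 17376 genes.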

Additional observations from a re-analysis of the deposited data

Results flagged for a closer look

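In control replicate 4, Suv39h2 stood at 9.11 CPM, while the other 3 controls lay between 7.45 and 7.57 CPM. This was 1 of 52 groups of 4 libraries examined in this way over the named members, and chance alone sets about 1 group in 20 apart. Without that library the fall of Suv39h2 did not pass (log2 change -0.19, adjusted p = 0.181).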

How the results depend on the processing

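The falls of writers and of erasers kept their counts within 1.5 times under every alternative run. Leaving out each library gave 12 to 15 writers and 8 to 11 erasers lower, where 15.2% to 16.7% of all tested genes fell. The medians were -0.078 to -0.049 for writers and -0.15 to -0.13 for erasers. Of the 25 members that fell, 18 passed whichever single library was left out. The rises of writers were the unstable count. Leaving out each library gave 0 to 2. There was 0 with no filter, with an adjusted p under 0.01, with DESeq2 and with the deposited TPM in limma, and 1 with the length trend removed, also when serine/glycine-free replicate 4 was left out as well, an alternative chosen after seeing the data. The median of erasers was -0.12 with the length trend removed, and -0.12 without serine/glycine-free replicate 4 in addition. The median of writers was -0.089 with the TPM in limma, where the median over all tested genes was -0.021. The cause was not tested. Replicate numbers did not pair the samples: deviations of same-numbered libraries correlated at -0.048, 0.061, 0.051 and -0.094. With the replicate number as a block, 14 writers fell, 1 rose, and 10 erasers fell, where 16.1% of all tested genes fell. With the block and the length trend removed these counts were 14, 1 and 9, where 20.2% of all tested genes fell. The median over erasers was then -0.12. Depth limits Tet1, Kdm4d, Prmt8 and Smyd1, whose counts were too few to test.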

Other observations

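Histone acetylation enzymes, a second group of chromatin modifiers, were counted in the same fit. Of 21 tested acetyltransferase and deacetylase genes 5 fell and 1 rose, where 17.3% and 15.9% of all tested genes did. Their median log2 change was -0.045. The acetyltransferase genes Kat2b (from 64.0 ± 2.17 to 52.9 ± 1.99 CPM, SD, n = 4; log2 change -0.27, adjusted p = 3.1e-07) and Kat6a (from 101 ± 3.45 to 84.3 ± 5.13 CPM; log2 change -0.26, adjusted p = 4.6e-07) and the deacetylase gene Hdac4 (from 24.6 ± 0.952 to 19.6 ± 0.690 CPM; log2 change -0.33, adjusted p = 7.3e-06) fell. With the length trend removed, 9 of the 21 fell, where 21.2% of all tested genes and 23 of the 63 tested members fell. Without control replicate 1 or control replicate 4, 2 of the 21 rose. The difference between these enzymes and the members was not tested.

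Among S phase and proliferation genes, Pcna rose from 193 ± 2.23 to 230.3 ± 2.81 CPM (log2 change 0.26, adjusted p = 1.0e-10), and so did Mcm6 (0.21, adjusted p = 1.1e-07) and Tyms (0.28, adjusted p = 0.00033). Counts of Tyms were not whole in any library. Of the 16 genes listed, 5 rose and 11 did not pass. The methyltransferase genes Dnmt1 and Ezh2, whose transcripts are known to be higher in dividing cells, did not pass either (log2 changes -0.058 and 0.013). Any relation of the members to proliferation was not tested.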
